A study of Mus musculus with 2 samples.

Results

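Among the GR1+ cells taken from 4T1 mammary tumors, 156 of 5187 retained barcodes carried a transcript panel of resident-like, scavenging macrophages (Lyve1, Cd163, Cbr2, Vsig4, Folr2, Retnla, Ednrb and Fcna). A barcode was a member if at least 3 of these 8 genes had at least 1 UMI (a counted RNA molecule) and the neutrophil genes S100a8 and S100a9 together held under 1.5% of its UMIs. They were compared with the 1618 other macrophages, barcodes under the same S100a8 and S100a9 limit in which C1qa, C1qb, C1qc, Apoe, Csf1r, Cd68 and Fn1 held at least 0.3% of UMIs but fewer than 3 panel genes were found. All 156 members passed that 0.3% limit too, so members and other macrophages together are called macrophage-type barcodes.

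4T1 is a mammary carcinoma line of BALB/c mice. The study set its parental form, 4T1P, whose tumors did not respond to blockade of the checkpoint receptor PD1, beside 4T1M, a mutagenized clone whose tumors did respond. Tumors grew in the mammary fat pad of female BALB/c mice, given as 6 to 8 weeks old, cells bearing GR1 (an antigen shared by Ly6G and Ly6C) were isolated with magnetic beads, and cells of 5 mice were pooled into 1 droplet library per tumor type by the series record. Other descriptions of the study give fewer mice and a higher age. The 4T1P library held 2947 barcodes with 21855657 UMIs, of which 1726 barcodes passed the limits of 500 to 5000 genes and 10% mitochondrial UMIs, and the 4T1M library held 5004 barcodes with 24303957 UMIs, of which 3461 passed. With 1 pooled library per tumor type and 1 mutagenized clone, differences between 4T1P and 4T1M have no replicate check, no test between them was possible, and every interval below is a 95% interval for counting error only. A total of 5 barcode sequences occurred in both libraries, and no member carried one of them.

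Macrophages that reside in a tissue before a tumor forms often line blood vessels and take up debris, hemoglobin and lipid through receptors such as CD163, the mannose receptor CD206 (Mrc1) and the folate receptor Folr2. LYVE1, a receptor for hyaluronan shared with lymphatic endothelium, is known to mark perivascular resident macrophages that carry little MHC class II. Macrophages that arise from blood monocytes after a tumor has formed more often carry Ccr2, MHC class II and inflammatory or interferon-driven transcripts.

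The panel genes chose the members, so that their values are descriptions. Folr2 was the most often found, in 86.4% of the 4T1P members and 89.5% of the 4T1M members. Fcna, which encodes a ficolin that binds sugars on microbes, was found in 77.1% and 76.3%. Cbr2, a carbonyl reductase, was found in 69.5% and 71.1%. Cd163, the scavenger receptor for the hemoglobin and haptoglobin complex, was found in 54.2% and 63.2%. Ednrb, an endothelin receptor, was found in 71.2% and 50.0%. The name-giving Lyve1 was found in fewer than 1 of 2 members, 44.1% and 39.5%. The complement receptor gene Vsig4 was the rarest in 4T1M (11.9% and 21.1%) and Retnla, a resistin-like secreted protein of alternatively activated macrophages, the rarest in 4T1P (9.32% and 42.1%). The panel genes occurred together to different degrees: of the members with Lyve1, 38 of 52 in 4T1P and 11 of 15 in 4T1M also had Cd163, and of those with Folr2, 82 of 102 and 28 of 34 also had Fcna.

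CPM stands for UMIs of a gene out of 1000000 UMIs of the cells summed. Lyve1 (GRCm38, chr7:110850607-110863239, minus strand) had 355 CPM over the summed members of 4T1P and 138 over those of 4T1M, against 2.0 and 0.336 in the other macrophages. Cd163 (chr6:124304656-124330527) had 396 and 424 CPM against 3.0 and 0.785. Folr2 (chr7:101839988-101857194) had 296 and 408 CPM against 47.1 and 15.4. Lyve1 and Cd163 were thus close to absent from the other macrophages, while Folr2 was found in 20.7% of the other macrophages of 4T1P and 8.00% of those of 4T1M, and Fcna in 17.4% and 7.57%. Retnla had 76.0 CPM in 4T1P members and 867 CPM in 4T1M members, but 1 cell supplied 53.2% of the 4T1M UMIs.

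Many members met the rule by the smallest margin. In 4T1P, 49 of 118 members had exactly 3 panel genes, and 98 of the other macrophages had exactly 2. In 4T1M, 13 of 38 members had exactly 3, and 42 of the other macrophages had exactly 2. Cells just inside and just outside the threshold had like depths, with medians of 17433 and 17885.5 UMIs in 4T1P and 13216 and 14428 in 4T1M. A total of 5 or more panel genes was reached by 44 members of 4T1P and 15 of 4T1M.

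**Figure D1:**
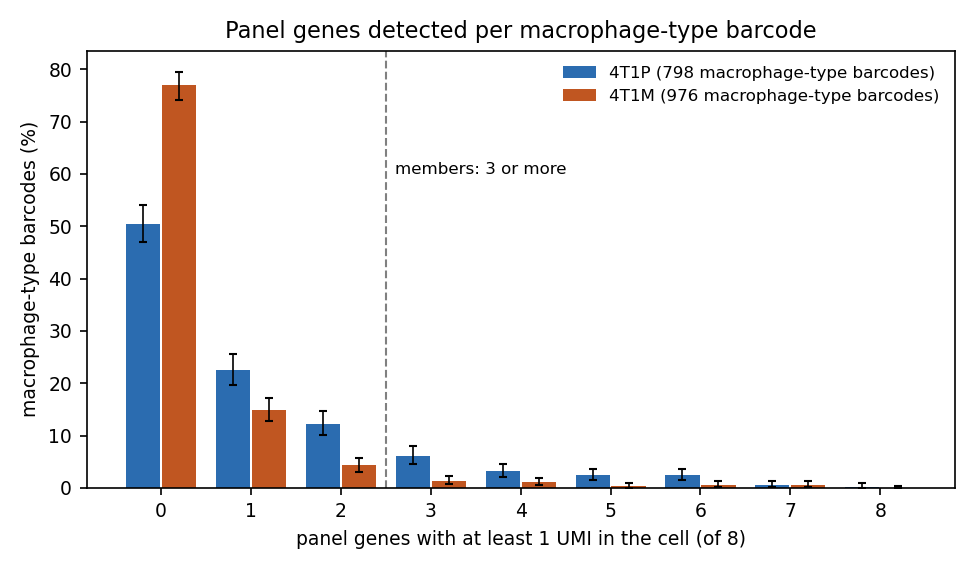
Share of macrophage-type barcodes (y axis, percent) by the number of the 8 panel genes with at least 1 UMI (x axis), for 4T1P (798 barcodes) and 4T1M (976 barcodes), with exact binomial 95% intervals as error bars. Members lie right of the dashed line, and 403 barcodes of 4T1P and 751 of 4T1M had none of the 8 genes.

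Ltc4s and Pltp, which also mark these cells but were no part of the rule, were found in 81.4% and 79.7% of 4T1P members and in 78.9% and 81.6% of 4T1M members, against 23.1% and 25.3% of the other macrophages of 4T1P and 16.7% and 22.2% of those of 4T1M. In neutrophil-type barcodes, those with at least 1.5% of UMIs from S100a8 and S100a9, which were shallower (medians of 3075 and 2972 UMIs), Ltc4s was found in 0.963% and 2.07% and Pltp in 1.93% and 1.38%. General macrophage markers were present as well. Of 9 tested genes of that list outside the rule, 6 were higher in members than in the other macrophages in both libraries. The other 3 were lower in both, beside 37.6% of all tested genes higher and 32.4% lower. The median log2 ratios of the list were 0.46 in 4T1P and 0.53 in 4T1M. Fcgr1 was lower, with 135 and 152 CPM in members against 190 and 266. Trem2 had 352 and 389 CPM in members against 256 and 270 in the other macrophages, and Adgre1, the gene of F4/80, 152 and 190 against 95.1 and 97.5. Ltc4s and Pltp are among the marker genes that came with the label of a resident-like macrophage, so their values describe the members and do not test the label. Lyve1 itself was found in a minority of members. Ccr2, the receptor of recruited monocytes, was not absent either, at 419 and 244 CPM in members against 523 and 423 in the other macrophages.

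The antigens used for the selection were hardly transcribed in these cells. Ly6c1 and Ly6c2, which encode Ly6C, had 0 UMIs in the members of both libraries, and Ly6g had 1 UMI in 4T1P and 2 in 4T1M. With 1762631 UMIs in the summed 4T1P members and 426563 in those of 4T1M, Ly6g came to 0.567 and 4.69 CPM, against 294 and 220 CPM in neutrophil-type barcodes. Low levels were not particular to members. The 3 genes together summed to 9.99 CPM in the other macrophages of 4T1P and 53.6 in those of 4T1M, against 354 and 279 in neutrophil-type barcodes. The antigen on the surface of the cells was not measured here.

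Markers of the other cells that a tumor digest could hold were low. Prox1, Emcn, Tek, Mmrn1 and Flt4, which mark lymphatic or blood endothelium, were at 0 in the members of both libraries. The endothelial list summed to 176 and 113 CPM in members and to 125 and 136 CPM in the other macrophages, most of it in members from Pdpn, a gene of lymphatic endothelium and other cells, which had 156 and 108 CPM in members and 90.2 and 88.1 CPM in the other macrophages. Fibroblast genes summed to 3.97 and 2.34 CPM, T and NK cell genes to 42.6 and 32.8, B cell genes to 6.24 and 28.1, dendritic cell genes to 9.64 and 44.5, and tumor epithelial genes to 9.64 and 23.4 CPM. The neutrophil list, S100a8 and S100a9 included, differed: it summed to 875 CPM in 4T1P members and 3732 CPM in 4T1M members, against 783 and 1365 CPM in the other macrophages and 173689 and 141334 CPM in neutrophil-type barcodes. Marco, Gata6 and Chil3, genes of other resident macrophage types such as those of marginal zone, peritoneum and lung, were at 0 in the members of both libraries.

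Members, the barcodes that met the rule, made up 14.8% of macrophage-type barcodes in 4T1P (118 of 798, exact Clopper-Pearson interval 12.4% to 17.4%) and 3.89% in 4T1M (38 of 976, 2.77% to 5.31%). The 4T1P share was 3.8 times the 4T1M share, and the ratio stayed between 2.78 and 4.48 under the 18 other settings tried. Depth entered the rule, since a deeper cell shows more panel genes, and the median depth was 15436.5 UMIs in 4T1P members and 10466.5 in 4T1M members, against 8455.5 and 9109 UMIs in the other macrophages. After each barcode was thinned to 1500 UMIs, which left out 121 and 139 shallower macrophage-type barcodes, at least 3 panel genes remained in 5.32% (36 of 677, 3.75% to 7.29%) of 4T1P and 1.91% (16 of 837, 1.10% to 3.09%) of 4T1M. Neutrophil-type barcodes, which should lack the panel, met it at the same thinned depth in 0 of 591 in 4T1P, an interval reaching 0.622%, and in 2 of 1629 (0.123%) in 4T1M. At full depth 0.642% and 0.230% of them had 3 panel genes. The direction was the same among barcodes outside the limits: 20 of 102 macrophage-type barcodes over 5000 genes met the rest of the rule in 4T1P and 1 of 34 in 4T1M. Over 10% mitochondrial UMIs, it was 29 of 201 and 4 of 153. Shares within a sort depend on how many of each cell type the beads recovered, which cannot be told apart here from their number in the tumor.

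Across the genes, members differed from the other macrophages of the same library in a small set. Of 4825 genes with enough UMIs, 55 (1.14%) were at least 2-fold higher in members in both libraries and 51 (1.06%) at least 2-fold lower, while the median log2 ratio of all genes was 0.03 in 4T1P and 0.02 in 4T1M. Since the cells were chosen by transcripts of the same libraries, these ratios describe the members and test nothing. Among genes outside the rule, the 12 highest in the weaker library were Wfdc17, Ltc4s, Pltp, Gas6, Serpinb6a, F13a1, C4b, Pmp22, Pros1, Timp2, Fcgrt and Nrp1.

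**Figure D2:**
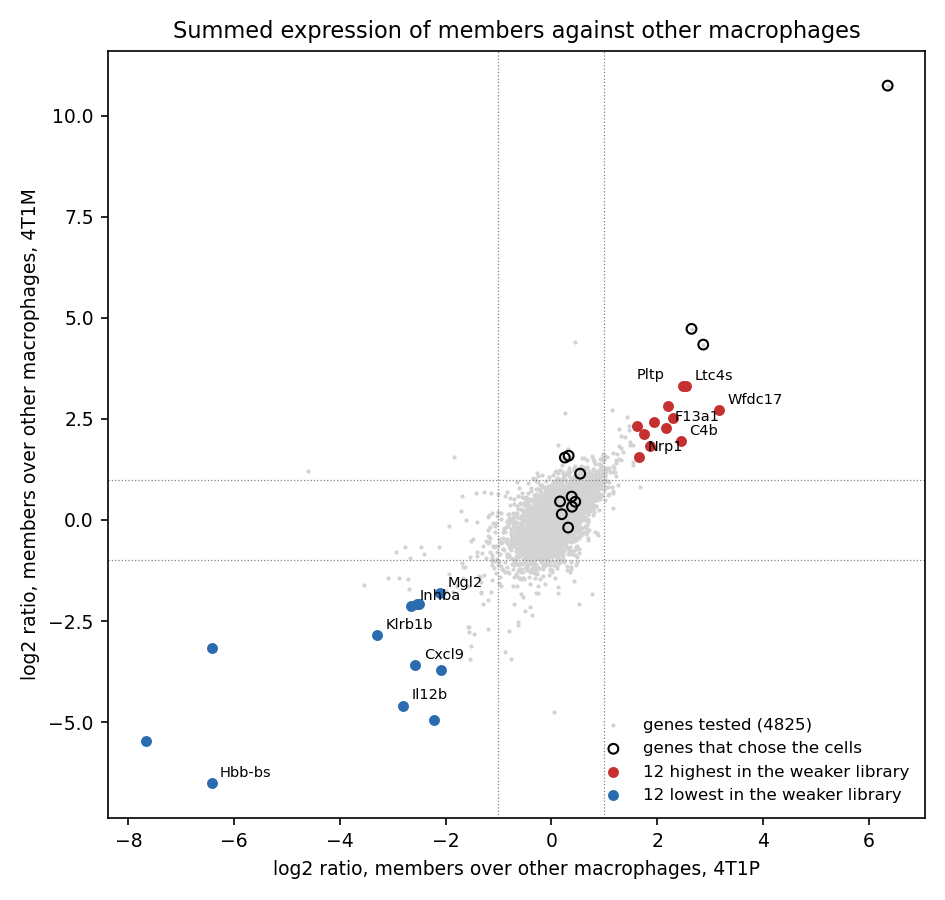
Log2 ratio of summed CPM, members over other macrophages, in 4T1P (x axis) and 4T1M (y axis) for 4825 genes (grey), with the genes that chose the cells as open circles and the 12 highest and 12 lowest other genes colored. Most genes lie near 0 in both libraries, and Ltc4s, Pltp and Wfdc17 lie past 2 on both axes.

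The genes at the head of this set have several roles. Wfdc17, a small secreted protein of the whey acidic protein family (chr11:83703991-83706268), had 3754 CPM in 4T1P members and 4056 in 4T1M members against 416 and 619 in the other macrophages, log2 ratios of 3.17 and 2.71. It is no marker of macrophages alone in these libraries, since neutrophil-type barcodes had 8166 and 6518 CPM. Ltc4s, the synthase of leukotriene C4, had 313 and 359 CPM against 53.3 and 36.1, log2 ratios of 2.55 (2.36 to 2.75) and 3.31 (3.02 to 3.59). Pltp, which transfers phospholipids between lipoproteins, had 317 and 499 CPM against 56.4 and 49.9, log2 ratios of 2.49 and 3.32. C4b, a complement component, had 91.3 and 181 CPM against 16.7 and 46.7. These genes were higher in members in both libraries by ratios whose counting intervals lay above 1 on the log2 scale.

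Gas6 and Pros1 encode the ligands of the TAM receptors, through which macrophages bind and engulf dying cells. Gas6 had 237 CPM in 4T1P members and 178 in 4T1M members against 47.8 and 31.2 in the other macrophages, log2 ratios of 2.31 and 2.52. Pros1 had 67.5 and 77.4 CPM against 18.4 and 21.9, log2 ratios of 1.87 and 1.84. Their receptor gene Mertk had 78.3 and 91.4 CPM against 51.4 and 60.7, so that both ligands differed by more than their receptor. F13a1, the A subunit of coagulation factor XIII, had 1145 and 556 CPM against 254 and 114, log2 ratios of 2.17 and 2.29. The ratios were close to these against the other macrophages that had an Mrc1 UMI, at 2.07 and 2.19 for Gas6, 2.55 and 3.14 for Ltc4s and 2.34 and 3.15 for Pltp, except for F13a1, with 2.12 and 3.0. Nrp1, a co-receptor of semaphorins and VEGF, had log2 ratios of 1.66 and 1.55, and Fcgrt, the neonatal Fc receptor that recycles IgG and albumin, 1.61 and 2.32.

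**Figure D3:**
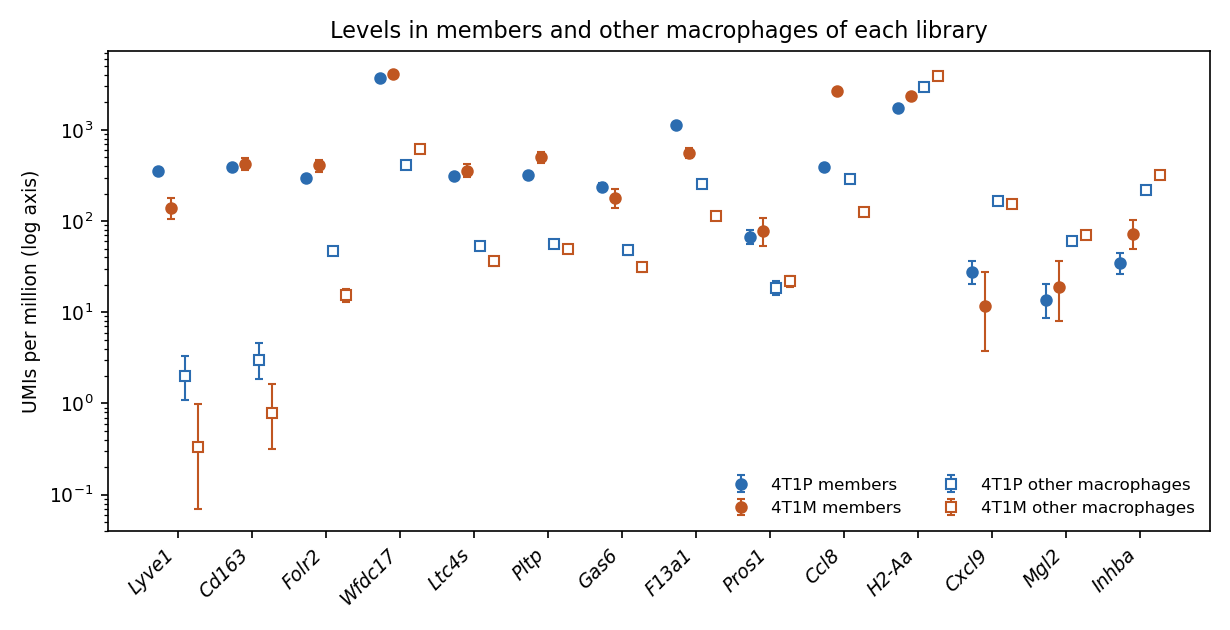
CPM (log axis) of 14 genes in members (filled circles) and other macrophages (open squares) of 4T1P (blue) and 4T1M (orange), with exact Poisson 95% intervals for counting error. Ltc4s, Pltp, Gas6, F13a1 and Pros1 were higher in members of both libraries, H2-Aa, Cxcl9, Mgl2 and Inhba lower, and Ccl8 stood highest in the members of 4T1M.

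Of 18 tested genes of a resident and perivascular macrophage list, 9 were at least 2-fold higher in both libraries and 1, Mgl2, at least 2-fold lower, beside the 1.14% and 1.06% of all genes, and the medians were 1.13 in 4T1P and 1.65 in 4T1M. Mrc1, the gene of CD206, had 1380 and 1130 CPM in members against 490 and 296. Selenop, a selenium carrier, had 1166 and 1672 CPM against 431 and 283. Stab1, the scavenger receptor stabilin-1, had 218 and 232 CPM against 92.5 and 75.0. Maf, a transcription factor of resident macrophages, had 481 and 506 CPM against 182 and 122, and was the 1 gene of 18 tested transcription factors past 2-fold. Mgl2, a galactose-binding lectin next to its near-identical neighbor Clec10a, went the other way, with 13.6 and 18.8 CPM against 59.96 and 69.9. Reads of the pair may be split between copies, so both are uncertain. Cd209a, Cd209b, Cd209d, Cd209f and Cd209g, lectins of the DC-SIGN family, were seen in members and had 0 UMIs in the other macrophages of both libraries, but the members' counts were small, 3 and 14 UMIs for Cd209a and 18 and 2 for Cd209f, and these genes are close copies of each other. Timd4, a phosphatidylserine receptor of long-lived resident macrophages, was low everywhere, at 13.05 and 18.8 CPM in members against 6.14 and 12.7.

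Chemokine genes split. Of 18 tested, Ccl6, Ccl9 and Ccl7 were at least 2-fold higher in both libraries and Cxcl9, Cxcl3, Cxcl10 and Ccl5 at least 2-fold lower, beside 1.14% and 1.06% of all genes. Ccl6 had 4014 and 2916 CPM in members against 1375 and 1136, Ccl9 1233 and 992 against 546 and 409, and Ccl7, which attracts monocytes, 1215 and 1744 against 539 and 551. Ccl6 (chr11:83587882-83593087) and Ccl9 (chr11:83572919-83578636) lie near Wfdc17, and Ccl7 (chr11:82045712-82047525) near Ccl8. Their neighbors did not all follow. Ccl3 and Ccl4, between Ccl6 and Wfdc17, and Ccl2 and Ccl12, near Ccl7, did not pass 2-fold in both libraries. Ccl5 (chr11:83525778-83530518), near Ccl9, was among the genes at least 2-fold lower. Cxcl9, an interferon-gamma target that attracts T cells, had 27.8 and 11.7 CPM against 167 and 155, although 1 cell supplied 51.0% of the 4T1P members' UMIs. It was no longer lower in the weaker library when 2 panel genes were enough, with a log2 ratio of 0.035. Cxcl10 had 149 and 113 CPM against 375 and 329, and Ccl5 125 and 291 against 264 and 585.

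The genes lowest in members included Inhba, an activin subunit, with 34.6 and 72.7 CPM against 219 and 322, and Il12b, the shared subunit of interleukins 12 and 23, with 3 UMIs in 4T1P members and 0 in 4T1M members. Il12b, like Cxcl9, was not lower in the weaker library when 2 panel genes were enough (0.17). Hbb-bs, a hemoglobin chain, had 7 UMIs in 4T1P members and 1 in 4T1M members and ranked lowest, but against other macrophages of like depth the log2 ratio in the weaker library was 0.40. Of the monocyte list, 6 of 6 tested genes were lower in both libraries, beside 32.4% of all genes, and 2 of them, Ms4a4c and Plac8, were at least 2-fold lower, beside 1.06%. Ptgs2, the inducible cyclooxygenase, had 544 and 312 CPM in members against 1204 and 1083, so that of 9 tested genes of eicosanoid synthesis Ltc4s was at least 2-fold higher in both libraries and Ptgs2 at least 2-fold lower, beside 1.14% and 1.06% of all genes.

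MHC class II genes were lower without passing 2-fold. Of 11 tested, 9 were lower in members in both libraries, beside 32.4% of all genes, and none was 2-fold lower in both, with medians of -0.55 in 4T1P and -0.55 in 4T1M. H2-Aa had 1727 and 2379 CPM in members against 2975 and 3860, and the invariant chain gene Cd74 had 5268 and 7181 against 7703 and 9747. The levels differed between members with and without a Lyve1 UMI, where a cell without one may still hold the transcript. Members with a Lyve1 UMI had 633 CPM of H2-Aa in 4T1P and members without one had 2287, and in 4T1M the values were 1293 and 2919. The log2 ratios of members with Lyve1 over those without were -1.85 (-2.01 to -1.70) and -1.17 (-1.41 to -0.94). Cd74 followed, with 2099 against 6891 CPM in 4T1P and 3808 against 8855 in 4T1M. Bmp2, a bone morphogenetic protein, went the opposite way, with 201 CPM in members with Lyve1 and 16.3 in those without in 4T1P, and 170 and 17.5 in 4T1M, where 1 cell supplied 51.7% of its UMIs in members.

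Beside the 1.14% and 1.06% of all genes, other lists gave the following counts. None of 14 tested iron and heme genes passed 2-fold in both libraries, although Hmox1, which degrades heme, had 1219 and 1242 CPM in members against 573 and 649. Of 18 lipid and lysosome genes 1, Pltp, was 2-fold higher and, among complement genes, C4b was 2-fold higher and Itgax 2-fold lower. Of 16 matrix genes, F13a1, Timp2 and Ecm1 were 2-fold higher and Sdc1, Mmp13 and Mmp8 2-fold lower in both libraries.

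Some genes differed with the number of panel genes. Members with 5 or more panel genes were set beside members with 3 or 4, and both this grouping and Fgfr1, Gja1 and Bmp2 were chosen after the values were seen. Fgfr1, a fibroblast growth factor receptor, had 115 CPM in the former and 8.58 in the latter in 4T1P, and 106 and 14.5 in 4T1M, against 0.143 and 0.897 CPM in the other macrophages. Gja1, the gap junction protein connexin 43, had 154 and 21.5 CPM in 4T1P, and 106 and 7.27 in 4T1M. Bmp2 had 147 and 43.8 CPM in 4T1P, and 152 and 21.8 in 4T1M. Wfdc17 had 8580 and 1280 CPM in 4T1P, and 7169 and 2341 in 4T1M. Cells with many panel genes thus carried these 4 transcripts at several times the level of cells with few. C1qa, a complement component of macrophages in general, did not follow, with 3714 and 3831 CPM in 4T1P and 4535 and 4013 in 4T1M. H2-Aa was lower in cells with 5 or more, by log2 ratios of -1.28 in 4T1P and -1.11 in 4T1M.

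**Figure D4:**
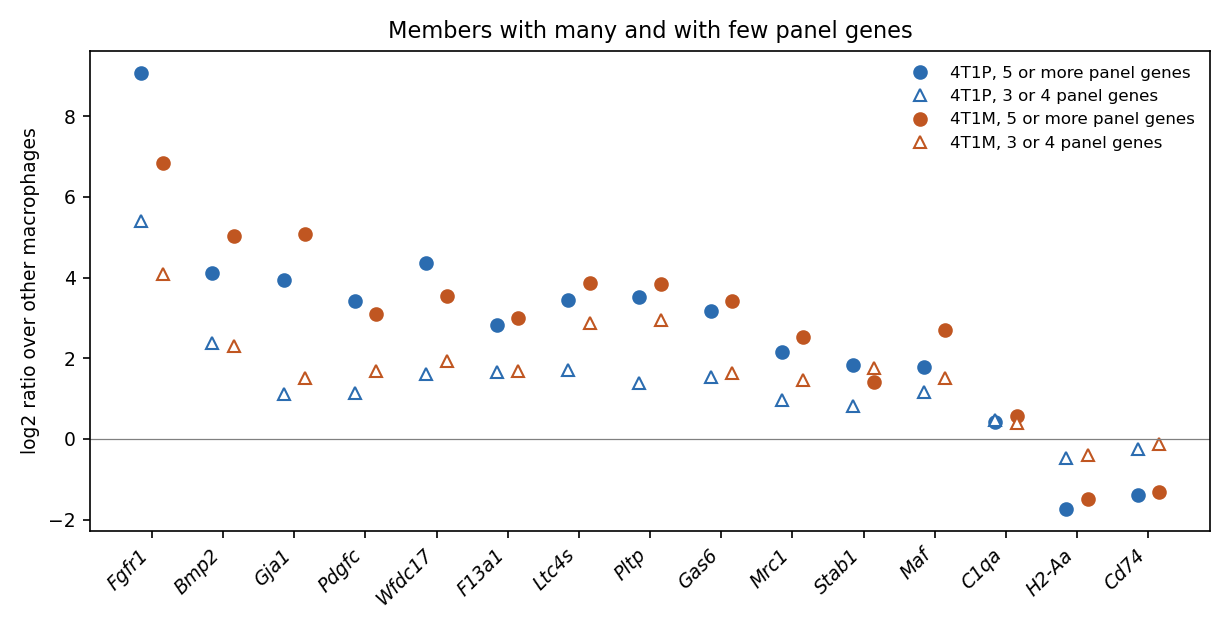
Log2 ratio over the other macrophages of the same library (y axis) for members with 5 or more panel genes (circles) and with 3 or 4 (triangles), in 4T1P (blue) and 4T1M (orange). Circles lie above triangles from Fgfr1 to Maf except for Stab1 in 4T1M, the 2 symbols lie close for C1qa, and circles lie below triangles for H2-Aa and Cd74. Fgfr1 rests on 1 UMI in the other macrophages of 4T1P and 8 in those of 4T1M.

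When members and other macrophages were clustered together without the 8 panel genes, 82 of 118 members of 4T1P and 22 of 38 of 4T1M fell in 1 cluster, which held 12.6% and 4.90% of the other macrophages. Of its 168 barcodes in 4T1P and 68 in 4T1M, only 48.8% and 32.4% were members. Members with 5 or more panel genes lay there in 41 of 44 and 15 of 15 cases, and members with 3 or 4 in 41 of 74 and 7 of 23. Of the remaining members, 20 of 4T1P and 2 of 4T1M lay in a cluster led by Mmp12 and Fabp5, and 9 and 5 in a cluster led by Vcam1 and Adamdec1. A total of 6 members of 4T1M and 0 of 4T1P lay in a cluster led by neutrophil genes such as Chil1, Il1f9 and G0s2. At other resolutions the cluster with most members held fewer of them, 43.6% and 44.2% in place of 66.7%. At a resolution of 0.4, 44 members of 4T1P (37.3%) and 11 of 4T1M (28.9%) lay in a cluster led by Vcam1 and Cx3cr1. That cluster held 26.0% and 33.8% of the other macrophages. At 1.2, a cluster led by Vcam1 held 8 and 6 members, and a cluster led by Arsb and Folr2 held 32 and 5. The rule thus took in cells that by their other transcripts lay with several macrophage groups.

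Members of 4T1M were then compared with members of 4T1P, 38 with 118 cells. Of 5040 genes with enough UMIs, 113 (2.24%) were at least 2-fold higher in 4T1M members and 133 (2.64%) at least 2-fold lower, with a median log2 ratio of -0.03. The neutrophil genes of the list moved with this comparison. Of 5 tested, 4 were at least 2-fold higher in 4T1M members and the other, Mmp9, at least 2-fold lower. The median log2 ratio was 1.96, and 0.65 in the other macrophages. It was 1.07 without the 6 members in the neutrophil-led cluster and -0.18 in members chosen after thinning to 1500 UMIs. For this and later ratios, thinning served only to choose the members, and the full UMIs of the chosen cells were summed. S100a9, part of the rule's upper limit, had 367 CPM in 4T1P members and 1700 in 4T1M members, with 40.4% of the 4T1M UMIs from 1 cell. Its log2 ratio of 2.21 was 0.93 in members chosen after thinning and 1.11 without the 6 cells. Their part in the values below was not tested, and values without the 6 cells are given where they differ.

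Ccl8, a chemokine for monocytes and T cells (chr11:82115185-82116799), had ratios of opposite sign in members and other macrophages. It had 394 CPM in 4T1P members (694 UMIs in 56 of 118 cells) and 2680 CPM in 4T1M members (1143 UMIs in 25 of 38 cells), a log2 ratio of 2.77 (2.63 to 2.90). In the other macrophages it had 289 CPM in 4T1P and 126 in 4T1M, a log2 ratio of -1.19. The highest cell supplied 25.4% of the members' UMIs in 4T1P and 30.8% in 4T1M. The ratio was alike in members with 5 or more panel genes (654 and 4258 CPM, 2.70) and in those with 3 or 4 (260 and 1810 CPM, 2.80), and 3.09 without the 6 members in the neutrophil-led cluster. With 2 panel genes enough it was 1.52. Neutrophil-type barcodes had 12.2 and 15.8 CPM. Ccl8 was thus higher in 4T1M members and lower in 4T1M among the other macrophages.

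The bases before Ccl8 and before the panel gene Fcna are shown as the promoters with the most cores bound by MAF, whose gene was higher in members, among those of the panel genes, Ccl8, Pltp, Ltc4s, Wfdc17, Gas6, F13a1 and Serpinb6a. Sequences are those of RefSeq on GRCm38, which listed a promoter for 7 of the 8 panel genes, and capitals mark the core TGCTGA bound by MAF proteins or the core GAGGAA bound by PU.1, on either strand (TCAGCA and TTCCTC on the other).
Ccl8, chr11:82114935-82115184, plus strand: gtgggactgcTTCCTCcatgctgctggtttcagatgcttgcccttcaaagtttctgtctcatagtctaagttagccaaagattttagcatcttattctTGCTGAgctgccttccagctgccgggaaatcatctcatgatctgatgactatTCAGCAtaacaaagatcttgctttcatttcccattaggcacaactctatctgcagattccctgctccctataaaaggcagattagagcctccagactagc
Fcna, chr2:25628031-25628224, minus strand: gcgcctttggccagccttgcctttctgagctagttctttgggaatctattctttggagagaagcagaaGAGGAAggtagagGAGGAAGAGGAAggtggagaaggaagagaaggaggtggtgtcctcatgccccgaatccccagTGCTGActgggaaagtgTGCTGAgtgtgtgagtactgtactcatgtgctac
The Ccl8 sequence held the MAF core at positions -152 and -100 from the start and the Fcna sequence at -107 and -90. The Ccl8 stretch runs up to the start, while the Fcna stretch ends at -57, since the bases after it lie within the annotated gene and are not printed. The promoters of Cd163, Cbr2, Vsig4, Pltp, Ltc4s, Wfdc17, Gas6, F13a1 and Serpinb6a held 0 MAF cores. Of the 8 promoters listed for these 7 panel genes (Folr2 has 2), 5 held the MAF core and 4 the PU.1 core within 250 bases, against 16.1% and 23.3% of all 32851 listed promoters, and none held the E-box CACGTG, against 6.02%. Among these 8, the Ednrb stretch and the second Folr2 stretch, each with a MAF core, lie wholly within the annotated genes. The MAF core of Retnla at -47 and the PU.1 core of Cbr2 at -79 also lie within the annotated genes. Such matches are descriptions of the letters, and binding was not measured here.

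Interferon-stimulated genes were higher in 4T1M members. Of 21 tested, 16 were at least 2-fold higher and 1, Cxcl9, at least 2-fold lower, beside 2.24% and 2.64% of all genes, and the median log2 ratio was 1.30. In the other macrophages the median was 0.77. In members it was 1.26 without the 6 cells in the neutrophil-led cluster and 0.93 when members were chosen after thinning to 1500 UMIs. Rsad2, the antiviral protein viperin, had 167 CPM in 4T1P members and 898 in 4T1M members, a log2 ratio of 2.42 (2.20 to 2.65), against 1.28 in the other macrophages. Isg15, a ubiquitin-like modifier, had 167 and 532 CPM, Ly6e 84.5 and 338, and Irf7, a regulator of type I interferon genes, 43.1 and 105. Without the 6 cells, the Irf7 ratio was 0.91 in place of 1.30, and that of Rsad2 was 2.30. These genes are not particular to macrophages: neutrophil-type barcodes had 382 and 741 CPM of Rsad2 and 991 and 1360 of Isg15. In 4T1P, members stood below the other macrophages in Isg15 (386 CPM) and Ly6e (207 CPM).

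Several inflammatory genes were higher too. Of 14 tested, Il6, Saa3, Ccl3 and Tnf were at least 2-fold higher in 4T1M members and none at least 2-fold lower, beside 2.24% and 2.64% of all genes, but without the 6 cells of the neutrophil-led cluster Tnf and Ccl3 were under 2-fold, with log2 ratios of 0.75 and 0.64. Il6 had 120 and 361 CPM, with 33.1% of the 4T1M UMIs from 1 cell, against 110 and 100 in the other macrophages. The complement genes C3, C6 and Cfb were at least 2-fold higher, C3 with 40.8 and 190 CPM. Acod1, which makes itaconate, had 163 and 858 CPM, and 396 in 4T1M without those 6 cells, against 3519 and 5044 in neutrophil-type barcodes. Areg, an EGF receptor ligand, had the highest ratio of the genes with at least 100 CPM in the members of a library (5.2), but from 4 cells of 4T1M, 1 of which supplied 66.7% of the UMIs.

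**Figure D5:**
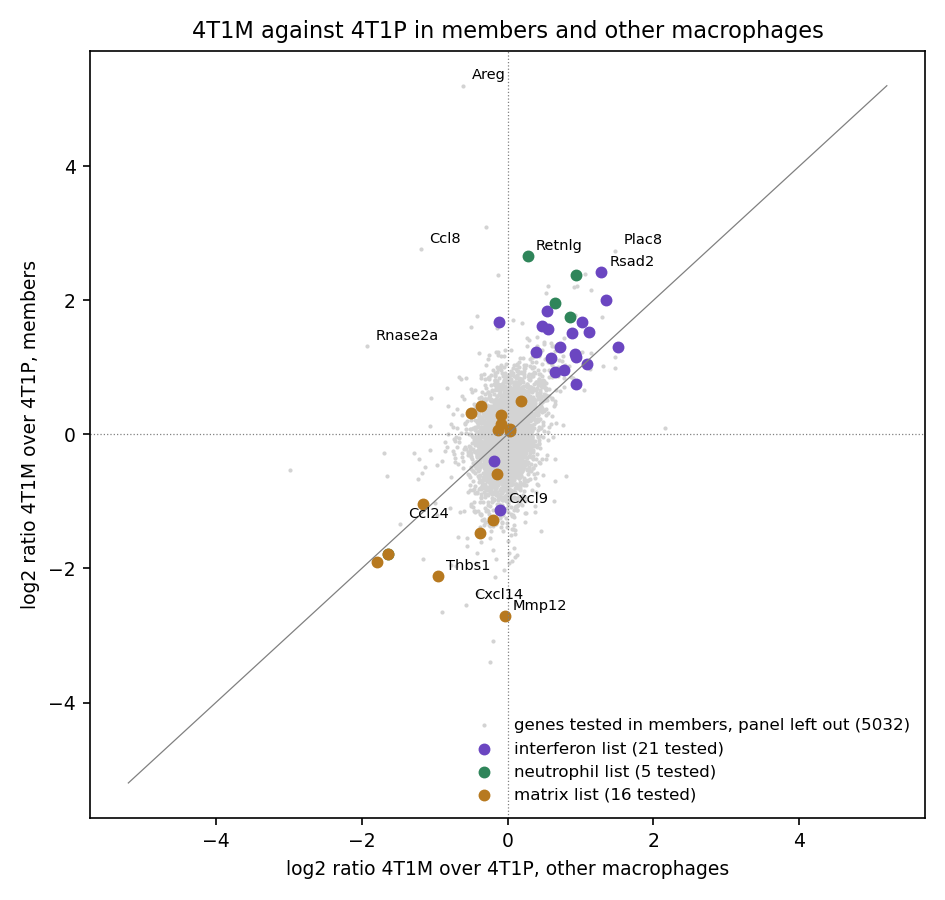
Log2 ratio of 4T1M over 4T1P in members (y axis) against the same ratio in the other macrophages (x axis) for 5032 genes outside the panel, with the interferon, neutrophil and matrix lists colored and the diagonal drawn. Ccl8 and Rnase2a lie above 0 in members and below 0 in the other macrophages, and 19 of 21 interferon genes lie above 0 in members.

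Matrix genes split between the libraries. Of 16 tested, 7 (Thbs1, Mmp9, Adam8, Mmp13, Mmp12, F13a1 and Vcan) were at least 2-fold lower in 4T1M members, beside 2.64% of all genes, and none at least 2-fold higher, while by sign alone 8 were higher and 8 lower, beside 47.4% and 52.6% of all genes. The median over the list was -0.27, and -0.17 in the other macrophages. Mmp9, F13a1 and Vcan had ratios of -1.79, -1.04 and -1.91 in members and -1.64, -1.15 and -1.79 in the other macrophages. The Mmp9 ratio rested on 8 UMIs in 4T1M members, and 1 cell supplied 45.5% of the 4T1P members' UMIs. Vcan had 6 UMIs in 4T1M members with Lyve1 and 3 in those without. Mmp12, macrophage elastase, had 743 CPM in 34 of 118 cells of 4T1P and 113 CPM in 10 of 38 cells of 4T1M, a log2 ratio of -2.71 (-3.17 to -2.31), with -0.04 in the other macrophages. Spp1, osteopontin, had 1925 and 539 CPM, a log2 ratio of -1.83, with 0.10 in the other macrophages. In members with 5 or more panel genes the Mmp12 ratio was -4.74 (-7.25 to -3.40, on 3 UMIs in 4T1M) and the Spp1 ratio -0.37, and in members with 3 or 4 they were -2.29 and -2.26. With 2 panel genes enough, the ratios were 0.42 and 0.082. In the clustering, 20 of the 118 4T1P members (16.9%) and 2 of the 38 4T1M members (5.26%) lay in the cluster led by Mmp12. Pf4, a platelet and macrophage chemokine, had 719 and 197 CPM (-1.86), against -1.16 in the other macrophages. Cd93, a C-type lectin-like surface receptor, had 222 and 56.3 CPM (-1.95), and Thbs1, thrombospondin-1, 198 and 44.5 CPM (-2.12).

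Of the panel genes themselves, Ednrb (-1.56) and Lyve1 (-1.35) were at least 2-fold lower in 4T1M members and Retnla (3.51) at least 2-fold higher, as a description. The Lyve1 ratio was -0.98 without the 6 cells of the neutrophil-led cluster and 0.16 at a mitochondrial limit of 5%, and that of Ednrb was -0.24 at the latter. Of 19 tested genes of the resident and perivascular list, Slc40a1, Clec10a and Ccl8 were at least 2-fold higher in 4T1M members and Pf4, Ccl24 and F13a1 at least 2-fold lower, beside 2.24% and 2.64% of all genes. Ltc4s, Pltp, Mrc1 (1380 and 1130 CPM) and Maf (481 and 506 CPM) were not 2-fold apart between the libraries. The MHC class II median was 0.34, with 1 of 11 genes, the transactivator Ciita, at least 2-fold higher, beside 2.24% of all genes, against 0.38 in the other macrophages.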

How the data were processed

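The authors aligned the reads to mouse genome mm10 and deposited, for each barcode, the raw UMI count of every gene, without normalization; the notes name Cell Ranger 4.0.0. Barcodes outside 500 to 5000 genes or over 10% mitochondrial UMIs were dropped, as in the study's methods. The members, gene lists and comparisons were chosen with earlier results of these data known. UMIs were summed per class and library. Log2 ratios used a pseudocount of 0.5 UMI and exact conditional intervals, CPM exact Poisson intervals, and shares exact binomial (Clopper-Pearson) intervals, all at 95%. A gene was included where the smaller sum had an expected count of at least 10. Genes named are the panel, members of the fixed lists, the 12 highest and 12 lowest ratios between members and other macrophages, and the 12 highest and 12 lowest between libraries among genes with at least 100 CPM; others named were chosen after their values were seen. Some list members counted in the totals are not reported here by name. Lists not described one by one (growth factors, scavenger receptors, alternative activation, checkpoint, hypoxia, cell cycle, stress) are given in the closing section. Clustering used scanpy 1.11.5 with leidenalg 0.10.2 (2000 variable genes, 25 components, resolution 0.75). No doublets were removed; Scrublet's own threshold called 1 barcode in 4T1P and 0 in 4T1M, and removing the 69 and 200 highest scores took out 3 and 0 members. Ratios were tested on simulated data, and the outcome is not reported here. Python 3.11.15 with scipy 1.17.1 and, for scaling factors only, R 4.3.3 with edgeR 4.0.16 and DESeq2 1.42.0 were used. Gene coordinates are from GENCODE on GRCm38.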

Additional observations from a re-analysis of the deposited data

Results flagged for a closer look

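Ccl8 was flagged because its ratio of 4T1M over 4T1P pointed in opposite directions in the members (log2 2.77) and in the other macrophages (-1.19), each past 2-fold. Rnase2a, an RNase A family gene with close copies whose reads may be split, was flagged for the same reason, with 1.32 in members (39.7 and 98.5 CPM) and -1.93 in the other macrophages (31.3 and 8.19 CPM). The 4T1M value of Rnase2a rested on 7 cells, 1 of which supplied 50.0% of the UMIs. With 1 library per tumor type, neither difference was tested.

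Barcodes outside the limits also carried the panel. Over 5000 genes, 19.6% of macrophage-type barcodes in 4T1P (exact interval 12.4% to 28.6%) and 2.94% in 4T1M (0.0744% to 15.3%) met the rest of the rule. Over 10% mitochondrial UMIs, 14.4% (9.88% to 20.1%) and 2.61% (0.717% to 6.56%) did so.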

How the results depend on the processing

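With 1 pooled library per tumor type, and members chosen by transcripts of the same cells, all values describe these libraries; genes under about 10 UMIs are not resolved in the 38 members of 4T1M. No paired analysis was possible because each tumor type has 1 library and the result comes from no test. The cause of the changes below was not tested.

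Shares of members in macrophage-type barcodes of 4T1P and 4T1M were 27.2% and 8.38% with at least 2 panel genes, 8.65% and 2.56% with 4, 5.51% and 1.54% with 5 (an alternative added after the data were seen, as were no upper gene limit and leaving out the neutrophil-led cluster), and 5.32% and 1.91% after thinning to 1500 UMIs. A mitochondrial limit of 5% gave 9.13% in 4T1P. Leaving out each panel gene in turn gave 10.0% to 14.8% in 4T1P and 2.87% to 3.89% in 4T1M. Without the filter on low counts, the 2-fold counts were 1203 higher and 171 lower in members than in other macrophages, and 1874 higher and 1131 lower in 4T1M than in 4T1P members. Members chosen after thinning, with their full UMIs summed, gave 89 genes lower in members and 72 higher in 4T1M members. At least 5 panel genes gave 80 lower in members, and 61 higher and 88 lower in 4T1M members. The cluster with most members held 43.6% of them at a resolution of 0.4 and 44.2% at 1.2.

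Over 23 settings there were 1238 values of single genes and list medians. Of these, 230, in 53 of the 55 results, moved beyond their counting interval, or by more than 0.25 for a list median. A change of direction was counted only where the main value was at least 2-fold, so smaller list medians may have changed sign uncounted. By that count, 8 values changed direction. With at least 2 panel genes these were Il12b (0.17) and Cxcl9 (0.035), members over others in the weaker library, and Mmp12 (0.42) and Spp1 (0.082), 4T1M over 4T1P. With members chosen after thinning, the neutrophil list and G0s2 were at -0.18. Lyve1 was at 0.16 with a mitochondrial limit of 5%, and Hbb-bs at 0.40 against cells of like depth. TMM scaling gave 43 genes higher and 59 lower in members in both libraries, and 120 higher and 127 lower in 4T1M members; DESeq2 size factors gave 44, 59, 122 and 126.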

Other observations

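Further gene lists were compared between members and other macrophages, where 1.14% of all genes were at least 2-fold higher in both libraries and 1.06% lower. Of 12 tested growth factor genes, Gas6 was at least 2-fold higher in both libraries. Of 14 scavenger receptor genes, Mrc1 and Stab1 were, and of 10 genes of alternative activation, Mrc1 was higher and Mgl2 lower. None of 11 checkpoint genes, 16 genes of hypoxia and glycolysis, 7 chemokine receptor genes, 15 genes induced by tissue dissociation and 5 cell cycle genes passed 2-fold in both libraries. Of 24 interferon genes, Cxcl9, Usp18 and Cxcl10 were at least 2-fold lower in members and none higher, and of 16 inflammatory genes Saa3 was higher and Il12b and Ptgs2 were lower.

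Between the members of 4T1M and 4T1P, Cd274, the gene of PD-L1, had 232 and 105 CPM, with 240 and 188 CPM in the other macrophages, and it was the 1 gene of 12 tested checkpoint genes at least 2-fold apart, beside 2.24% of all genes higher and 2.64% lower. Of 16 genes of hypoxia and glycolysis, 12 were lower in 4T1M members, beside 52.6% of all genes, with a median log2 ratio of -0.47 against -0.08 in the other macrophages, and 1, Ndrg1, was at least 2-fold lower, beside 2.64% of all genes. The iron exporter gene Slc40a1, ferroportin, had 89.1 CPM in 4T1M members and 17.0 in 4T1P members, with 68.4% of the 4T1M UMIs from 1 of 4 cells. Of 5 cell cycle genes, Stmn1, Mki67 and Top2a were at least 2-fold higher in 4T1M members, beside 2.24% of all genes and with a list median of 1.21 against -0.17 in the other macrophages, and with 78.6% of the Top2a UMIs from 1 cell. Of 15 dissociation genes, Hspa1a was at least 2-fold lower, at 127 and 385 CPM. Of 16 growth factor genes, Csf1, Areg and Pdgfa were at least 2-fold higher in 4T1M members and Gdf15 lower, of 11 genes of alternative activation Il1rn and Clec10a were higher and Ccl24 lower, and of 18 chemokine genes Ccl8, Ccl5 and Ccl3 were higher and Pf4, Cxcl9, Ccl24 and Cxcl14 lower. Of 16 iron and heme genes Slc40a1 was higher, of 17 lipid and lysosome genes Spp1 was lower, of 20 transcription factor genes Id3 and Bhlhe41 were lower, and none of 14 scavenger receptor, 10 eicosanoid and 7 chemokine receptor genes passed 2-fold.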
